A study of Homo sapiens with 7 samples.

Results

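The miR-146 family was represented by 3 of the 480 mature microRNAs in the table: hsa-miR-146b-5p, hsa-miR-146a-5p and hsa-miR-146b-3p, written without the species prefix from here on. They were taken by name, with no threshold on a measured value, and each has a single row. The samples were 7 captures from A375, a human melanoma cell line. Seeding was followed 24 h later by harvest and by crosslinking in 1% formaldehyde for 10 min. The lysates then went through miR-CATCHv2.0, which pulls down a chosen mRNA with probes so that the microRNAs bound to it can be sequenced. The target was BRAF-X1, a transcript form of the kinase gene BRAF, reached through its 3' UTR by probe set ODD in 3 captures and by probe set EVEN in 3 others. The remaining capture used scrambled probes (SC in the labels). All 7 come from the same line under the same crosslinking, no treatment or genotype differs between them, and no library of uncaptured A375 RNA was analysed here, so a value describes what a capture recovered and not the cell's content.

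MicroRNAs are short RNAs that guide Argonaute proteins to mRNAs, mainly by pairing of the seed, bases 2 to 8 from the 5' end. miR-146a is induced by NF-kB, a transcription factor of inflammatory signalling, and miR-146b also rises with inflammatory signals. Both repress IRAK1 and TRAF6, signalling proteins upstream of NF-kB, which makes the family a textbook negative feedback loop. miR-146a and miR-146b come from separate genes on different chromosomes.

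The mature sequences are shown because both 5p members share a seed and can be told apart only near the 3' end. They are written 5' to 3' from RefSeq annotation on GRCh38.p14, with the seed in capitals.
miR-146b-5p: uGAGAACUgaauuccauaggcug
miR-146a-5p: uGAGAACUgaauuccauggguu
miR-146b-3p: gCCCUGUGgacucaguucuggu
The same pair is written again with capitals at the bases in which they differ.
miR-146a-5p: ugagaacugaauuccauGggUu
miR-146b-5p: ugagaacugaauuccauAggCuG
The first 17 bases are identical. From miR-146a-5p to miR-146b-5p the substitutions are G18A and U21C, counted from the 5' end, and miR-146b-5p has 1 more base, with a length of 23 against 22. No rule for assigning reads that end before these bases is given in the sources used here, so reads could have been split between both names. The seed GAGAACU is also that of miR-7153-5p, which is not among the names analysed here; neither is miR-146a-3p. The opposite arm, miR-146b-3p, has another seed.

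miR-146b-5p lies at chr10:102436520-102436542 and miR-146b-3p at chr10:102436557-102436578, both on the plus strand within the hairpin gene MIR146B (chr10:102436512-102436584), which overlaps no other gene of the RefSeq table. Its neighbours there are CUEDC2, 3938 bp to the left, and C10orf95-AS1, 13233 bp to the right. miR-146a-5p lies at chr5:160485372-160485393 on the plus strand, within MIR146A (chr5:160485352-160485450), inside the span of the long noncoding RNA gene MIR3142HG. All positions are those of GRCh38.p14 and are not taken from the deposited table.

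Levels are in RPM, reads scaled to a library total of 1e+06. The libraries were shallow, with 4049 to 35508 reads over all rows and 4647 reads in the scrambled library, and 1 read was worth 28.2 to 247 RPM. Intervals given for single libraries are exact Clopper-Pearson 95% intervals of the reads. They hold counting error alone, because sequenced copies without molecular identifiers are not separate molecules. As a check of the labelled cell type, miR-204-5p, a pigment cell microRNA, had 156 reads, 4 of them with scrambled probes, and miR-509-3p of the X-linked cluster had 6; the other 5 of 7 pigment cell markers are not among the names analysed here. The 5 blood cell markers with a row had 30 reads in all, of which miR-486-5p had 23. Their summed level was 247 to 507 RPM in the ODD, 0 to 629 RPM in the EVEN and 215 RPM in the scrambled library, and miR-142-3p and miR-223-3p were at 0 in every EVEN and scrambled library. The 3 epithelial markers with a row had 16 reads in all and 0 with scrambled probes.

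miR-146a-5p was the abundant member, with 434 reads in all and a rank of 26 among 480 names by mean RPM. It had 4435, 5773 and 5433 RPM in ODD replicates 1 to 3. With EVEN probes it had 4090, 4899 and 6083 RPM, and with scrambled probes 4519 RPM. The scrambled value fell inside the range of the other 6, and the ODD and EVEN libraries overlapped. The highest library was 1.49-fold the lowest.

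miR-146b-5p was scarcer, with 66 reads in all and a rank of 65. It had 462, 535 and 741 RPM in ODD replicates 1 to 3, from 5, 19 and 3 reads. With EVEN probes it had 753, 966 and 1468 RPM, from 7, 14 and 7 reads. With scrambled probes it had 2367 RPM, from 11 reads. Every ODD library was below every EVEN library, and the scrambled library was above all 6, a spread of 5.12-fold from lowest to highest. The closest ODD and EVEN libraries, ODD replicate 3 (741 RPM, interval 153 to 2164) and EVEN replicate 1 (753 RPM, interval 303 to 1552), were indistinguishable at this depth.

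miR-146b-3p, the opposite arm of the miR-146b hairpin, had 1 read in all, in EVEN replicate 2. In the deepest library, ODD replicate 2, it had 0 reads, for which a floor of 3 reads is 84.5 RPM and the exact interval ends at 104 RPM, against 535 RPM of the 5p arm there. With scrambled probes, also at 0 reads, the floor is 646 RPM and the interval ends at 794 RPM. It did not reach the minimum for testing (10 RPM in at least 3 libraries), so 2 of the 3 members were tested.

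**Figure D1:**
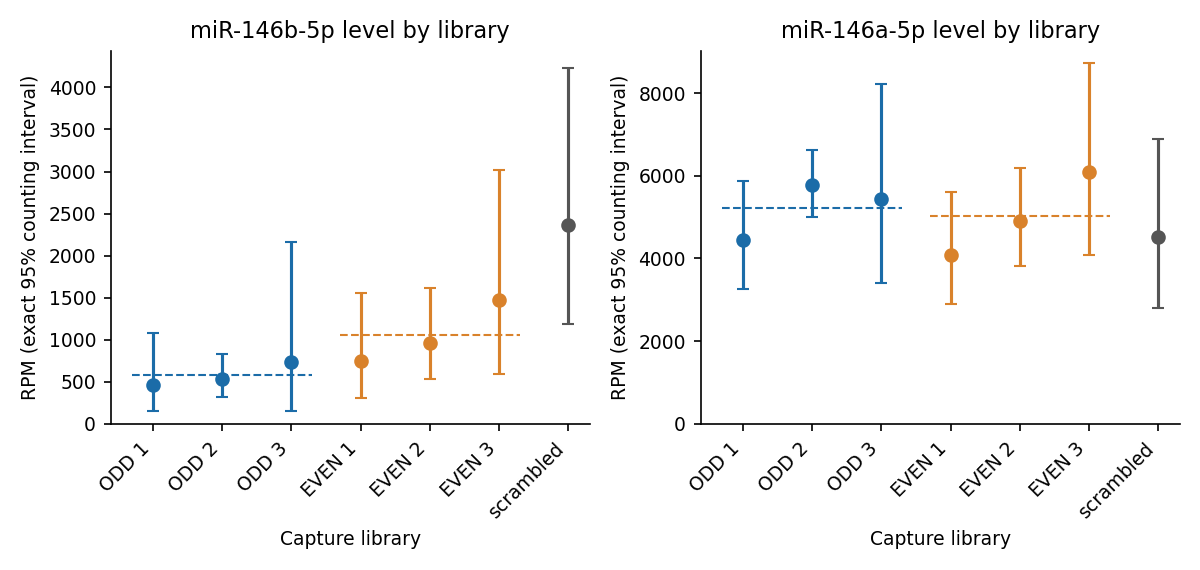
Level in RPM (vertical axes from 0, different ranges) of miR-146b-5p (left) and miR-146a-5p (right) in each of the 7 capture libraries; bars are exact 95% counting intervals and dashed lines the means of 3 ODD and of 3 EVEN libraries. miR-146b-5p runs from 462 RPM in ODD replicate 1 to 2367 RPM in the scrambled library, while miR-146a-5p stays between 4090 and 6083 RPM.

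The first comparison was between the probe sets, which were directed at the same transcript. The mean of miR-146b-5p was 579 ± 145 RPM for the ODD captures (SD, n = 3) and 1063 ± 367 RPM for the EVEN captures (SD, n = 3), an EVEN mean 1.83-fold the ODD mean. By limma on log2(RPM + 10) the ODD minus EVEN difference was -0.84 (SE 0.52, 95% interval -1.90 to 0.22, adjusted p = 0.913 over 242 tested microRNAs, unadjusted p = 0.117), so it did not pass. The exact two-sided permutation test of the RPM gave p = 0.1, the smallest that 3 against 3 can give. Of all tested microRNAs, 0.413% passed in either direction and 3.31% had every ODD library below every EVEN library, as miR-146b-5p did. Because RPM is a share of the captured reads of a bulk lysate, fewer cells holding a microRNA, less of it per cell and less of it recovered cannot be told apart.

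The labels give the ODD and EVEN captures a second number, 9, 10 and 12 for replicates 1 to 3, whose meaning is not stated; the scrambled library also carries 12. Within each number miR-146b-5p was higher with EVEN probes, by 1.63-, 1.81- and 1.98-fold. Among the 3 libraries numbered 12, the order was ODD (741 RPM), EVEN (1468 RPM) and scrambled (2367 RPM). Every ODD library was below every EVEN library, and the scrambled one was highest. Any matching of libraries would therefore give these directions. For miR-146a-5p the EVEN library was 0.922-, 0.849- and 1.12-fold the ODD library within the numbers, with no common direction.

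The mean of miR-146a-5p was 5214 ± 695 RPM for the ODD captures (SD, n = 3) and 5024 ± 1003 RPM for the EVEN captures (SD, n = 3). By limma the difference was 0.064 (95% interval -0.51 to 0.64, adjusted p = 0.981), and its sign turned under 3 of 19 other settings, quantile scaling and the fits without ODD replicate 2 and without EVEN replicate 1. The reads of both 5p members together came to 5793 ± 779 RPM for ODD (SD, n = 3) and 6087 ± 1368 RPM for EVEN (SD, n = 3), with an exact two-sided permutation p of 1.

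The second comparison asked whether the family was more abundant with BRAF-X1 probes than with scrambled probes. Neither tested member passed. miR-146b-5p had 821 ± 364 RPM over the 6 BRAF-X1 libraries (SD, n = 6) and 2367 RPM with scrambled probes, 2.88-fold the mean of the 6. The mean BRAF-X1 level would give 3.82 reads at the scrambled library's depth, where 11 were counted. The scrambled library's interval, 1182 to 4231 RPM, lay above 5 of the 6 BRAF-X1 values and included that of EVEN replicate 3 (1468 RPM). Those values have counting intervals of their own. The intervals of ODD replicates 1 and 2 ended below the scrambled one, at 1078 and 835 RPM. The intervals of ODD replicate 3 and of every EVEN library overlapped it. The limma difference, BRAF-X1 minus scrambled, was -1.62 (SE 0.69, 95% interval -3.02 to -0.22, unadjusted p = 0.0245, adjusted p = 0.426), so it did not pass over all 242. It was among 4 microRNAs lower at an unadjusted p under 0.05, or 1.65% of those tested, with miR-1273f, miR-3180-3p and miR-744-5p, named after their values were seen; 7.02% were higher at that level. After adjustment limma called 2 microRNAs higher and 0 lower, 0.826% of those tested. The called microRNAs, miR-184 and miR-17-5p, had 0 RPM with scrambled probes, where 1 read was worth 215 RPM. Both were named after their values were seen. All 6 BRAF-X1 libraries were below the scrambled one for 22.7% of the tested microRNAs, so this order by itself was common. With 1 scrambled library its spread had to be assumed equal to that of the other groups.

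Taken separately, the probe sets shared that scrambled library. With ODD probes the limma difference of miR-146b-5p from scrambled was -2.04 (95% interval -3.54 to -0.54, unadjusted p = 0.00907, adjusted p = 0.383). With EVEN probes it was -1.20 (95% interval -2.70 to 0.29, adjusted p = 0.667). Each of these comparisons also called 0.826% of the tested microRNAs, neither member among them.

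miR-146a-5p had 5119 ± 779 RPM over the 6 BRAF-X1 libraries (SD, n = 6) against 4519 RPM, from 21 reads, with scrambled probes. The limma difference was 0.17 (95% interval -0.59 to 0.92, adjusted p = 0.820). Against scrambled the ODD difference was 0.20 (-0.61 to 1.01) and the EVEN difference 0.13 (-0.68 to 0.94), the latter turning to -0.014 without EVEN replicate 3.

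**Figure D2:**
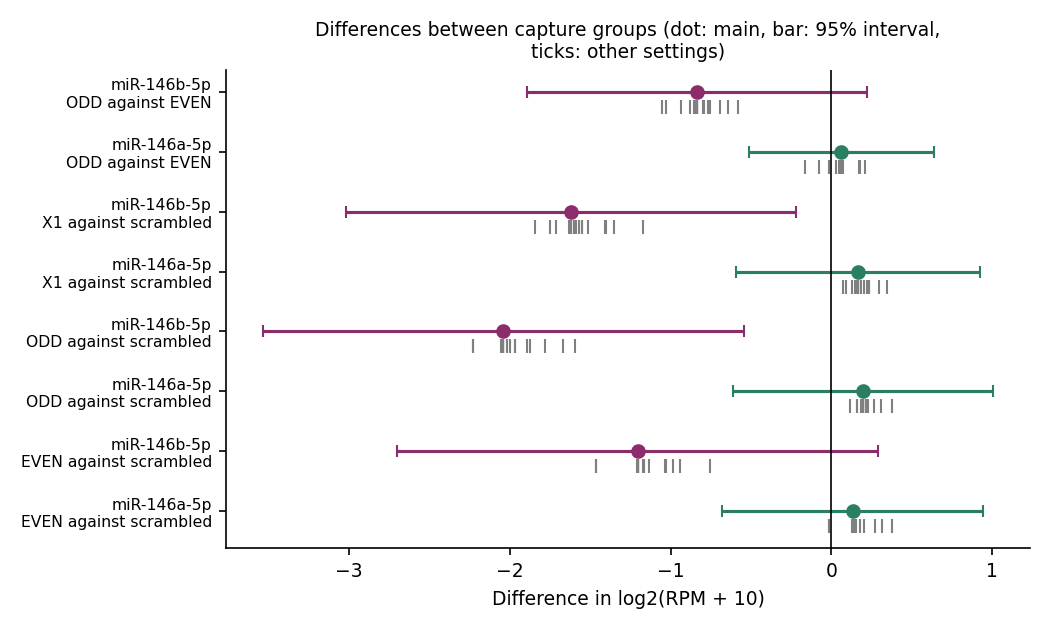
Differences in log2(RPM + 10) of miR-146b-5p and miR-146a-5p in the 4 comparisons, with X1 for both BRAF-X1 probe sets together; dots are the limma estimates, bars their 95% intervals and grey ticks the estimates under 18 or 19 other settings. All estimates of miR-146b-5p are below 0, with intervals that include 0 for ODD against EVEN and for EVEN against scrambled, and those of miR-146a-5p lie around 0.

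Because both 5p members were counted in the same library, the share of miR-146b-5p among their reads does not depend on the library total. With ODD probes it was 9.43%, 8.48% and 12% in replicates 1 to 3, of 53, 224 and 25 reads. With EVEN probes it was 15.6%, 16.5% and 19.4%, of 45, 85 and 36 reads. With scrambled probes it was 34.4%, of 32 reads (exact 95% interval 18.6% to 53.2%). The groups did not overlap, and the order was that of the miR-146b-5p levels. The share uses the same miR-146b-5p reads beside a miR-146a-5p level that varied 1.49-fold, so it does not stand apart from those levels. Shares of other pairs were not computed.

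The share averaged 9.97% ± 1.82 with ODD and 17.2% ± 2.03 with EVEN probes (SD, n = 3 each). The difference was -7.18 percentage points, and the exact two-sided permutation test gave p = 0.1, the smallest possible with 3 against 3. The SDs are no yardstick for this difference, because single libraries had wide counting intervals. That of ODD replicate 3 was 2.55% to 31.2% (3 of 25 reads). For EVEN replicate 3 it was 8.19% to 36.0% (7 of 36 reads). Within the label numbers the EVEN share was higher by 6.12, 7.99 and 7.44 percentage points, a direction that the lack of overlap fixed. The pooled reads gave 8.94% for ODD (27 of 302, exact 95% interval 5.97% to 12.7%) and 16.9% for EVEN (28 of 166, 11.5% to 23.4%), and these counting intervals overlap slightly. Pooled over the 6 BRAF-X1 libraries the share was 11.8% (55 of 468 reads, exact 95% interval 8.98% to 15.0%), below the scrambled library's interval. That last comparison is of 1 library with 6 and has no replicate check. It also pools both probe sets, and ODD replicate 2 gave 224 of the 468 reads. Of the single libraries, only ODD replicate 2 had an interval (5.18% to 12.9%) clear of the scrambled library's 18.6% to 53.2%. The intervals of the other BRAF-X1 libraries and of the pooled EVEN reads overlapped it. The share of miR-146b-5p would also move if reads were assigned differently between both names, which was not tested.

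**Figure D3:**
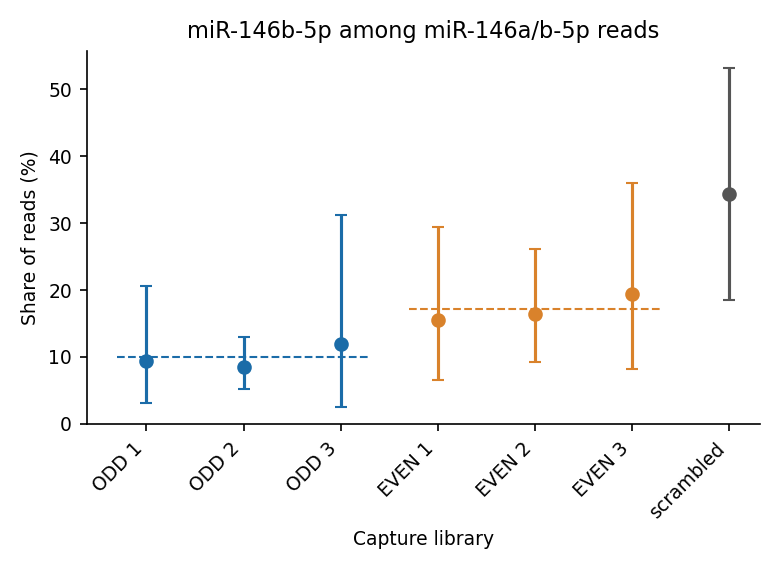
Share of miR-146b-5p among the reads of miR-146a-5p and miR-146b-5p (percent, from 0) in each capture library; bars are exact 95% binomial intervals and dashed lines the means of the ODD and EVEN libraries. ODD libraries lie between 8.48% and 12%, EVEN libraries between 15.6% and 19.4%, and the scrambled library at 34.4%, from 32 reads.

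Depth and these values moved together in part. The scrambled library (4647 reads) and replicate 3 of each probe set (4049 and 4767 reads) were the shallowest, and replicate 3 had the highest miR-146b-5p level and the highest share of its set. Across the sets, ODD replicate 3, the shallowest library, was at 741 RPM, below EVEN replicates 1 and 2 (753 and 966 RPM, of 9292 and 14492 reads). Its value came from 3 reads, with an interval of 153 to 2164 RPM that includes both EVEN values. The order of these libraries is therefore not settled at this depth. With log2 depth as a term in the limma fit, the miR-146b-5p difference was -0.75 for ODD against EVEN (95% interval -1.80 to 0.29) and -1.40 for BRAF-X1 against scrambled probes (-2.86 to 0.059), neither of which passed.

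The order ODD below EVEN below scrambled, with no overlap, was met by 2 of the 242 tested microRNAs (0.826%), miR-146b-5p and miR-5095. This order was looked for after the values were seen. miR-5095 was scarce, with a mean of 28.2 RPM for ODD and 175 RPM for EVEN. Its scrambled level of 215 RPM was the worth of 1 read. The microRNAs whose levels followed miR-146b-5p most closely were ranked by Pearson's r of log2(RPM + 10) over the 7 libraries, among 95 others of at least 500 RPM on average. These points share the library total and depth, so r is a description. miR-27b-3p came first (r = 0.874, Spearman's rho 0.964), but its levels spanned 18850 to 22810 RPM, with the scrambled library at 1.08-fold the BRAF-X1 mean. Next were miR-10a-5p (r = 0.866, scrambled 1.46-fold the BRAF-X1 mean), miR-3180 (0.863, 1.79-fold), miR-182-5p (0.843, 1.42-fold) and miR-3180-3p (0.801, 1.88-fold), all of which had their highest level in the scrambled library. Over the 6 BRAF-X1 libraries alone r was 0.910 for miR-27b-3p and 0.656 to 0.817 for the other 4. miR-146a-5p, with the same seed, ranked 38 of 95 with r = 0.042 (rho 0.143), and r = 0.414 over the 6.

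The microRNAs nearest to miR-146b-5p in mean RPM over the 7 libraries (1042) are given for comparison. That mean includes the scrambled library. Over the 6 BRAF-X1 libraries miR-146b-5p averaged 821 RPM and these 6 microRNAs 950 to 1392 RPM, so they were not matched there. Above it were miR-23a-3p, miR-5701 and let-7c-5p, and below it miR-24-3p, miR-196a-5p and miR-3687. In the scrambled library 4 of these 6 had 4 reads each, let-7c-5p had 2 and miR-24-3p had 7, against 11 of miR-146b-5p. None passed in either comparison by limma. Their BRAF-X1 minus scrambled differences were -0.76 for miR-24-3p and between 0.083 and 0.36 for the other 5. Between the probe sets the ODD minus EVEN difference was 3.06 for let-7c-5p, the widest of the 6, whose ODD mean of 2352 RPM had an SD of 2892 (n = 3) beside an EVEN mean of 432 RPM (limma, adjusted p = 0.883). It was 0.86 for miR-24-3p (limma, adjusted p = 0.909), -0.45 for miR-196a-5p and between -0.090 and 0.21 for the other 3, against -0.84 for miR-146b-5p.

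A list of 12 microRNAs known to be induced by NF-kB, miR-146a-5p among them, held 11 with a row and 10 that were tested. None passed by limma in any of the 4 comparisons. At an unadjusted p under 0.05 there was 1, higher with ODD than with scrambled probes, and 0 in the other comparisons. This was miR-34a-5p, named after its values were seen, with 19 reads in all and 0 in the scrambled library. There 1 read was worth 215 RPM. The median log2 difference of the 10 tested was 0.068 for ODD against EVEN, beside 0.072 over all tested. For BRAF-X1 against scrambled it was 0.070, beside 0.096 over all tested. By abundance the list was led by miR-21-5p, which is raised in many tumours, with 23955 ± 3927 RPM over the BRAF-X1 libraries (SD, n = 6) and 18937 RPM with scrambled probes. miR-222-3p and miR-221-3p, which repress the cell cycle inhibitor p27, had 17169 ± 4623 and 9132 ± 2302 RPM (SD, n = 6 each) against 23241 and 9038 RPM. miR-125b-5p, a repressor of p53, had 5604 ± 813 RPM against 8823 RPM, and miR-9-5p, which acts on NFKB1 mRNA, 372 ± 145 RPM against 1291 RPM from 6 reads (SD, n = 6 each). Their adjusted p by limma ran from 0.660 to 0.972. miR-155-5p, the other well known NF-kB-induced microRNA of immune cells, had 10 reads in all, none with EVEN or scrambled probes, and was not tested; it was singled out after its values were seen.

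A second list held 10 microRNAs known to act on parts of the NF-kB pathway; 9 had a row, 8 were tested and none passed by limma in any of the 4 comparisons, with 0 at an unadjusted p under 0.05. The median difference was 0.10 for ODD against EVEN, beside 0.072 over all tested, and -0.22 for BRAF-X1 against scrambled, beside 0.096 over all tested. miR-10a-5p, which represses MAP3K7, had 15481 ± 2764 RPM over the BRAF-X1 libraries (SD, n = 6) and 22595 RPM with scrambled probes. miR-181b-5p, which represses the nuclear import factor importin-alpha 3, had 16250 ± 3866 against 13557 RPM, and miR-16-5p 5529 ± 1288 against 4949 RPM (SD, n = 6 each). miR-199a-3p had 620 ± 234 RPM (SD, n = 6) against 861 RPM, from 4 reads.

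**Figure D4:**
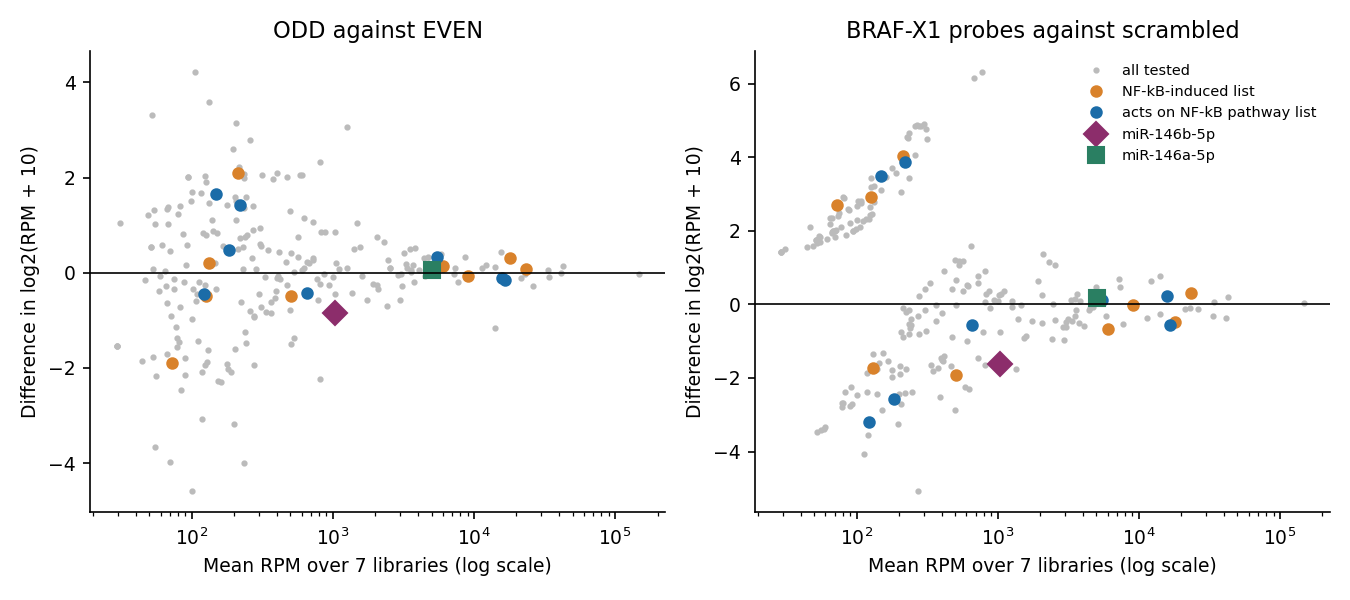
Difference in log2(RPM + 10) (vertical) by mean RPM over the 7 libraries (horizontal, log scale) for the 242 tested microRNAs, ODD against EVEN (left) and BRAF-X1 against scrambled probes (right); coloured points are the NF-kB lists and the tested miR-146 members. miR-146b-5p lies at -0.84 and -1.62 at a mean of 1042 RPM, miR-146a-5p at 0.064 and 0.17, and at low RPM the right panel separates into microRNAs with and without scrambled reads.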

How the data were processed

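The authors deposited a table of RPM, reads scaled to a total of 1e+06 over all rows of a library, for 498 hairpin and mature pairs (480 mature names) in 7 libraries. CASAVA 1.8 and cutadapt 1.2.1 are the tools in the submitters' processing notes. Which aligner, counting rule, annotation and build followed is not given in the sources used here. That the unit is RPM follows from the deposited column totals. All values were whole multiples of 1 read to within 1e-06 reads, which gave the reads and depths. The 17 mature names with several rows were represented by the row with the most RPM.

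The main test was limma 3.58.1 (R 4.3.3) applied to log2(RPM + 10), fitting a mean per group over all 7 libraries, eBayes with a trend, and two-sided Benjamini-Hochberg adjustment over 242 microRNAs of at least 10 RPM in at least 3 libraries, at 0.05. The single scrambled library adds no residual degree of freedom. The fit was tested on simulated data. Permutation tests used SciPy 1.17.1. Nothing says that replicates came from separate cultures, so the spread behind the p-values is at most that between captures. In limma most of this spread was borrowed from all tested microRNAs, with 28.6 prior beside 4 residual degrees of freedom. The constant of 10 RPM shrinks fold changes between low values that have reads. It is below the 28.2 to 247 RPM of 1 read, so differences from a library without reads come out large and depend on the constant. The members, lists and tests were chosen with earlier results of these data known. MicroRNAs were named by membership in the family or lists (those of at least 500 RPM on average), the 5 highest correlations and the 3 nearest levels on each side. Cell type markers were named at any level. Some others were named after their values were seen, as said where they appear. Mature sequences were matched to RefSeq for 406 of 480 names.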

Additional observations from a re-analysis of the deposited data

How the results depend on the processing

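miR-146b-5p did not pass by limma and kept its negative sign in all 4 comparisons under all 18 or 19 other settings, with log2 differences from -1.06 to -0.58 for ODD against EVEN, -1.84 to -1.17 for BRAF-X1, -2.23 to -1.59 for ODD and -1.46 to -0.76 for EVEN against scrambled probes, and adjusted p from 0.0962 to 0.998. Leaving out 1 library gave -1.06 to -0.58, -1.75 to -1.51, -2.23 to -1.89 and -1.46 to -0.98 in the same order. The share difference between ODD and EVEN ran from -8.20 to -6.04 percentage points, and that from scrambled from -22.0 to -19.8. As the groups did not overlap, leaving out a library could not turn any of these signs. Nor could another added constant, filter or eBayes trend turn that of miR-146b-5p. Median scaling and the fit without replicate 3 of both sets were chosen after seeing the data. miR-146a-5p, never past the threshold, turned sign for ODD against EVEN under quantile scaling (-0.16) and without ODD replicate 2 or EVEN replicate 1 (-0.075 to 0.21 over the left-out libraries), and for EVEN against scrambled without EVEN replicate 3 (-0.014 to 0.27) or replicate 3 of both sets (-0.014); the cause was not tested.

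The 1 call over all microRNAs for ODD against EVEN became 0 under log2(RPM + 1), no filter, quantile scaling, rescaling to 1 row per name, median scaling, the replicate block and without replicate 3 of both sets, and 3 with no eBayes trend. The 2 calls for BRAF-X1 against scrambled became 0 under log2(RPM + 250) and the replicate block, 1 under quantile scaling and 12 with no filter. The 2 for ODD against scrambled became 0 under log2(RPM + 250), quantile scaling, no eBayes trend and the replicate block, and 11 with no filter. The 2 for EVEN against scrambled became 1 under log2(RPM + 250), 0 under quantile scaling and the replicate block, and 12 with no filter. Leaving out 1 library gave 0 to 1, 0 to 2, 0 to 2 and 0 to 3 calls. Neither miR-146 member was called in any setting.

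Same-numbered ODD and EVEN libraries did not deviate together (correlations -0.044, 0.072 and 0.019 over 242 microRNAs), so the numbers were not taken to pair them. Counting noise at this depth limits what these correlations can show. miR-146b-5p itself rose from replicate 1 to replicate 3 in both sets. With the replicate block the ODD against EVEN difference of miR-146b-5p was -0.84 (SE 0.33, 95% interval -1.68 to 0.0016, unadjusted p = 0.0503, adjusted p = 0.795 by limma). The edgeR, DESeq2 and TMM alternatives were not run. Depth limits every statement on miR-146b-5p, which had 3 to 19 reads a library.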
